A study of Mus musculus with 3 samples.

Results

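Among the tdTomato-sorted cells of the mouse larynx, 1982 of 41033 cells carried RNA of muscle satellite cells, the stem cells of skeletal muscle, together with no counted RNA of the myogenic activators Myod1 and Myog. Cells were chosen by measured RNA alone: a cell was counted when at least 2 of the 6 genes Pax7, Myf5, Chodl, Fgfr4, Cdh15 and Calcr had a unique molecular identifier (UMI, 1 counted RNA molecule) and Epcam, Myod1 and Myog had none. The 41033 cells were those barcodes in which the number of detected genes lay between 500 and 8000, that of UMIs between 1000 and 40000 and the mitochondrial share at 8% or less, without UMIs of all of Krt5, Ltf, Scgb3a1 and Dcn together. Libraries 1, 2 and 3 held 627, 548 and 807 of these satellite cells, which was 5.00%, 7.67% and 3.78% of their kept cells. The mean over libraries was 5.48% ± 1.99 (SD, n = 3). Cells that met every other part of the rule but had a Myod1 or Myog UMI numbered 158, 194 and 280 and are called Myod1/Myog-positive satellite cells. The 10843, 5959 and 18309 kept cells with no UMI of any of the 6 genes served as the comparison cells.

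All cells came from Lrig1CreERT2/+; ROSA26 CAG-LSL-tdTomato/+ mice, in which tamoxifen, injected on 2 consecutive days, allowed cells with an active Lrig1 promoter to switch on the red reporter tdTomato. Each of the 3 libraries was a single-cell 3' library from a pool of 10 larynges, 5 from male and 5 from female mice, collected 24 h after recombination and sorted for tdTomato with gates set on wild-type and reporter-only animals. The animals' ages are not given in the sources used here. There was 1 condition, so every comparison was between groups of cells of the same pools, the library was the replicate, and the mice within a pool could not be told apart. Neither tdTomato nor Cre was among the 33696 features, so the sort itself could not be checked in the counts.

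Satellite cells lie between the muscle fibre and its basal lamina and are marked by the transcription factor Pax7. In resting muscle they are held quiescent, among others by Notch and calcitonin receptor signalling. After injury they switch on Myod1, divide, and later Myog accompanies their differentiation and fusion into fibres. The intrinsic muscles of the larynx derive from the branchial arches, whose muscle precursors use factors such as Msc and Tcf21.

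The genes that chose the cells describe them and are not a finding. Pax7, the paired-box factor of satellite cells, had a UMI in 83.6%, 86.5% and 90.7% of the satellite cells without Myod1 or Myog in libraries 1, 2 and 3. Myf5, a myogenic factor already present in most quiescent satellite cells, was seen in 87.4%, 82.7% and 85.7%. Chodl and Fgfr4, a surface lectin and an FGF receptor, reached 89.4% to 95.9% and 86.4% to 93.4%. Calcr, the calcitonin receptor, was detected in 52.9% to 62.2% and the cadherin Cdh15 in 30.7% to 50.7%. Epcam-positive epithelial cells, which should lack these genes, had a Pax7 UMI in 5.75% to 7.32% of cells and each of the other 5 genes in 0.711% to 2.87%, at median depths of 13106, 17902 and 14383 UMIs against 7191, 8250 and 5669 in the satellite cells.

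**Figure D1:**
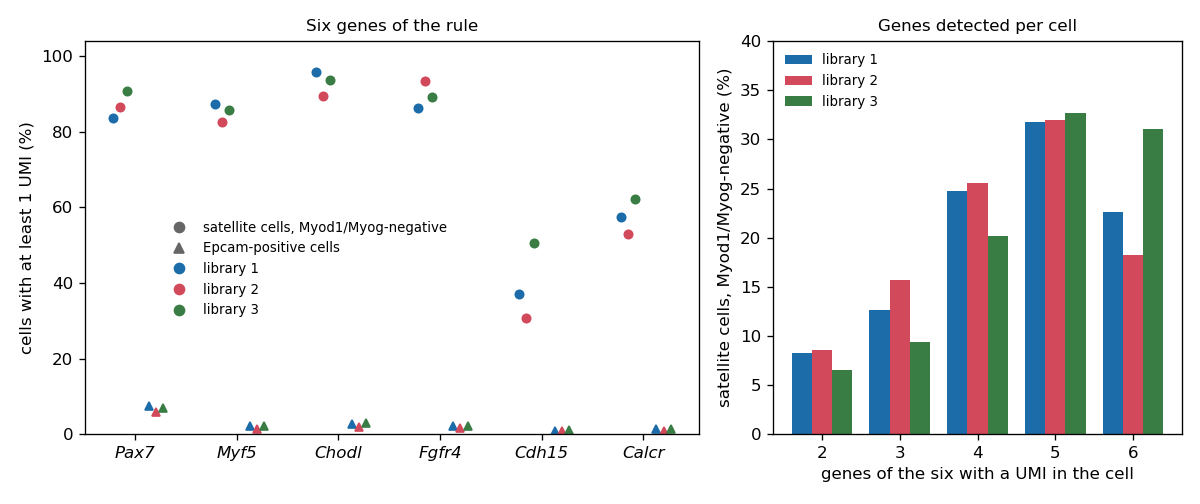
Left, percentage of cells with at least 1 UMI (y axis) of each of the 6 genes of the rule (x axis) in Myod1/Myog-negative satellite cells (circles) and Epcam-positive cells (triangles), 1 symbol per library. Right, percentage of the satellite cells of each library (bars) with 2 to 6 of the genes detected. All satellite-cell values lie above 30%, all values of Epcam-positive cells lie below 8%, and cells with 5 detected genes are the commonest class in libraries 1, 2 and 3 alike.

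Most of the cells cleared the threshold with room to spare. Exactly 2 of the 6 genes were seen in 152 cells (7.67%), 3 in 241, 4 in 458, 5 in 638 (32.2%) and all 6 in 493 (24.9%). The cells just inside the threshold had median depths of 2182.5, 4954 and 2297 UMIs and more RNA of fibroblast markers in each library. Their 8 fibroblast markers summed to 5483, 8125 and 10679.6 CPM (UMIs of a gene per 1000000 UMIs of the summed cells), against 2220 to 3189 CPM in all 1982 cells, and their 7 macrophage markers to 143, 35.6 and 945 against 36.7 to 88.9 CPM. Their 10 epithelial markers summed to 711, 210 and 1526 against 365, 183 and 728 CPM. Their 8 secretory markers summed to 1193, 359 and 1002 against 796, 249 and 488 CPM. Endothelial markers and those of pericytes and smooth muscle were lower in each library. Just outside it, 203, 55 and 242 cells had 1 of the 6 genes, and in them the summed level of the 6 genes was 246.8 to 413.0 CPM and that of the fibroblast markers 16906 to 22416 CPM. The 6 genes reached 942.3 to 1273 CPM in the cells with exactly 2 of them and 3071 to 4222 CPM in all 1982 cells. The clause on Epcam set aside 585 further cells with 2 or more of the genes.

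The zero for Myod1 and Myog depended on depth. Of all satellite cells, 7.83% had a Myod1 or Myog UMI at 1000 to 2000 UMIs per cell, 19.4% at 2000 to 5000, 26.9% at 5000 to 10000 and 27.4% at 10000 to 20000. The last class, 20000 to 40000 UMIs, held only 13 negative and 6 positive cells. A cell without such a UMI is therefore a cell in which none was counted, which is not the same as a cell without the RNA. Among the positive cells 99.5% to 100% had Myod1 and 0.515% to 1.90% had Myog, so the split is nearly a split by Myod1.

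Summed markers of endothelial cells, Schwann cells and macrophages were lower in the satellite cells than in the comparison cells of each library, whereas those of fibroblasts were higher in 2 libraries and those of pericytes and smooth muscle in all 3. The 6 endothelial markers summed to 2.88 to 21.7 CPM in the satellite cells against 13.8 to 300.6 CPM in the comparison cells, the 6 Schwann markers to 16.6 to 18.4 against 101.2 to 111.2 CPM and the 7 macrophage markers to 36.7 to 88.9 against 679 to 1509 CPM. Sox10, the defining Schwann factor, had no UMI in the satellite cells of any library. The 8 fibroblast markers summed to 3178, 3189 and 2220 CPM in the satellite cells against 3476, 886 and 1598 CPM in the comparison cells, higher in libraries 2 and 3. Dcn made up 2559, 2916 and 963 CPM of these sums, with a UMI in 40.8% to 70.3% of the satellite cells, while Col1a1 was seen in 1.64% to 5.82% and Pdgfra in 1.28% to 4.31%. Of the 7 other fibroblast markers none passed edgeR's quasi-likelihood test on the library sums, and with the library as a term of the fit, called the replicate block, 2 were higher and 4 lower. The 8 pericyte and smooth muscle markers summed to 470.3, 369 and 545 CPM against 209, 69.7 and 109.8 CPM, higher in each library, with 4 of 8 passing as higher and 1 as lower, or 5 and 3 with the block. In the comparison cells without Epcam both sums were higher than in the satellite cells, at 7067 to 12944 CPM and 564 to 972 CPM. Their part in the other results was not tested. Krt5, the basal epithelial keratin, had a UMI in 15.2%, 12.8% and 38.2% of the satellite cells, against 59.0%, 74.1% and 86.8% of the comparison cells. Libraries 1, 2 and 3 shared at most 165 barcodes in pairs, and no barcode was a satellite cell in both libraries of a pair. A doublet caller marked 34, 2 and 45 of the satellite cells.

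Library 2 stood apart within the satellite cells in its immediate-early genes. The summed level of 27 immediate-early and dissociation response genes, which cells switch on within minutes of stress or growth signals, was 5112, 25844 and 4473 CPM in libraries 1, 2 and 3. The Myod1/Myog-positive satellite cells followed with 5408, 28998 and 5034 CPM. The comparison cells of the same libraries were at 4086, 4448 and 3417 CPM, so library 2 stood far above the others in both classes of satellite cells and close to library 1 in the comparison cells. Of the 27 genes, 26 were highest in library 2 among the satellite cells without Myod1 or Myog, against 12 in the comparison cells. Fos, a subunit of the AP-1 transcription factor, stood at 267, 5338 and 291 CPM in the satellite cells and at 114, 206 and 78.6 CPM in the comparison cells. With 1 library on that side the difference between libraries could not be tested.

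**Figure D2:**
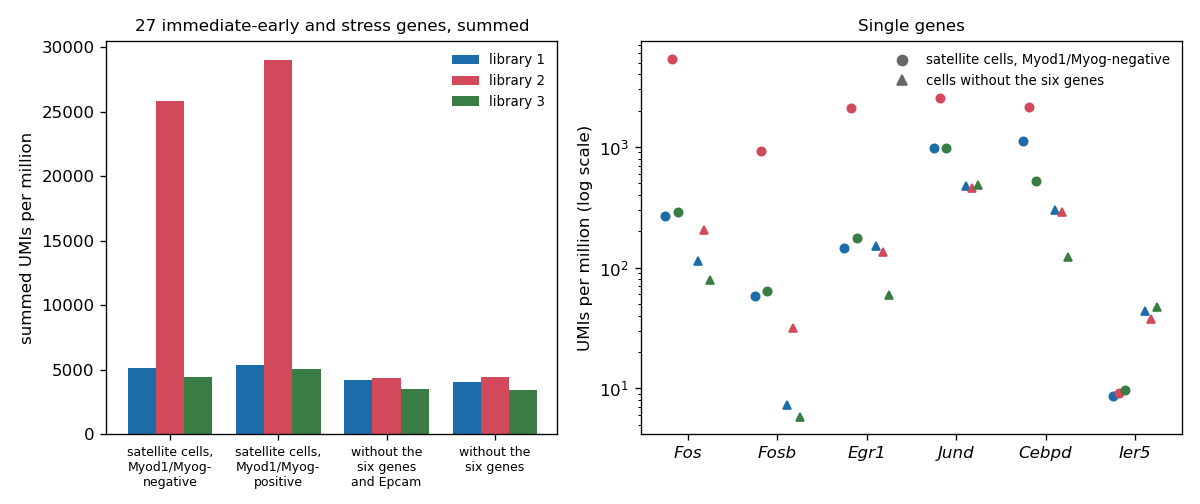
Left, summed CPM of 27 immediate-early and stress genes (y axis) in 4 groups of cells (x axis), 1 bar per library. Right, CPM on a log axis of 6 of these genes in Myod1/Myog-negative satellite cells (circles) and in cells without the 6 genes of the rule (triangles). Library 2 reaches 25844 CPM in the negative and 28998 CPM in the positive satellite cells and stays at 4448 CPM in the comparison cells, while Ier5 does not separate library 2 from the others.

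The first comparison asked which further genes set the satellite cells apart from the rest of the sorted larynx. For each library the UMIs of a group of cells were added up, and these sums were tested with edgeR's quasi-likelihood test (3 sums against 3, Benjamini-Hochberg adjusted p under 0.05), leaving out the 13 genes of the rule. Of 18809 genes tested, 8303 (44.1%) passed, 3411 (18.1%) higher and 4892 (26.0%) lower in the satellite cells. Since the rule asked for cells without Epcam, part of the fall of epithelial genes follows from it, and the comparison was repeated against the 4382, 1277 and 3203 comparison cells without an Epcam UMI. There 7054 of 14722 genes (47.9%) passed, 3126 higher (21.2%) and 3928 lower (26.7%). With so many genes called, a count within a list is to be read against these shares. The filter on low counts also kept genes that reached its level in either group alone. Such genes could only differ towards that group. Without library 2 the first count was 4486 genes, and with the library as a block it was 8713 (46.3%).

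Genes of satellite cell identity that the rule had not used were high. The comparison cells were chosen by the absence of the 6 genes, so a rise of genes expressed together with these is not independent of the rule. Of 15 such genes tested 10 rose and 1 fell, with a median log2 fold change of 4.11 against -0.12 over all genes. Des, the intermediate filament of muscle, stood at 362, 564 and 449.6 CPM against 5.05, 1.56 and 1.99 CPM, a log2 fold change of 7.32 ± 0.56 SE, adjusted p = 0.000143 by edgeR. All 3 libraries of satellite cells lay far above the comparison cells, also above those without Epcam, where Des was at 15.7, 13.3 and 16.6 CPM. Ncam1, an adhesion molecule of satellite cells and immature fibres, was at 555, 523 and 692 against 13.9, 6.48 and 5.11 CPM (6.11 ± 0.44 SE). Megf10, a receptor that keeps satellite cells from differentiating, was at 237, 227 and 331 against 5.82, 1.998 and 2.58 CPM (6.24 ± 0.46 SE). The laminin receptor subunit Itga7 was at 30.2, 27.9 and 58.3 against 1.35, 0.521 and 0.667 CPM and the chemokine receptor Cxcr4 at 135, 139 and 124 against 5.61, 3.11 and 2.13 CPM. Both separated the groups without overlap, which 58.6% of all genes tested also did.

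The other members of that list behaved less uniformly. Vcam1, an adhesion molecule often used to sort satellite cells, rose by a log2 fold of 4.11 ± 0.39 SE, with 53.8% to 65.8% of the satellite cells positive. Pax3, the paralogue of Pax7 typical of trunk and limb muscle precursors, was higher as well (5.64) but remained at 16.9, 26.8 and 19.4 CPM, with a UMI in 5.90% to 9.85% of the cells. Musk, a kinase of the neuromuscular junction, and Tenm4, a transmembrane teneurin, rose by 5.33 ± 0.50 SE and 2.80 ± 0.17 SE. The HGF receptor Met fell by 0.76 on the log2 scale against all comparison cells and rose by 1.09 against those without Epcam (edgeR adjusted p = 0.00642 and 0.00502). Cd34 likewise rose by 1.82 against all comparison cells and stood at -0.52 against those without Epcam, where it did not pass (edgeR adjusted p = 0.0355 and 0.12). With the replicate block Cd34 was lower than in the cells without Epcam, by a log2 fold change of -0.48 (edgeR adjusted p = 0.0261). The rise against all comparison cells did not pass without library 2 or 3 when unblocked (edgeR adjusted p = 0.0714 and 0.203).

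Msc and Tcf21, transcription factors of head muscle, were far higher in the satellite cells. Msc, the branchial muscle repressor also called MyoR, was at 163, 179.8 and 167 against 2.35, 0.776 and 0.787 CPM (7.03 ± 0.52 SE, edgeR adjusted p = 0.000132), and its partner Tcf21 at 84.7, 83.02 and 71.9 against 10.9, 2.59 and 3.51 CPM (3.82 ± 0.55 SE). Of the list of 20 head and trunk muscle factors tested, 10 rose and 4 fell, with a median of 0.65, where 18.1% of all genes rose and 26.0% fell. The T-box factor Tbx15 rose by 5.25, and Isl1, a factor of the second heart field and branchial muscle, by 1.05. Lbx1, a factor of migrating limb muscle precursors, was present at 4.66, 9.30 and 8.91 CPM and had 0 UMIs in the comparison cells of libraries 2 and 3. Pitx1 and Eya2 were among the 4 that fell, at 0.664 to 7.29 against 69.1 to 113 CPM and at 63.3 to 99.8 against 344 to 483 CPM.

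**Figure D3:**
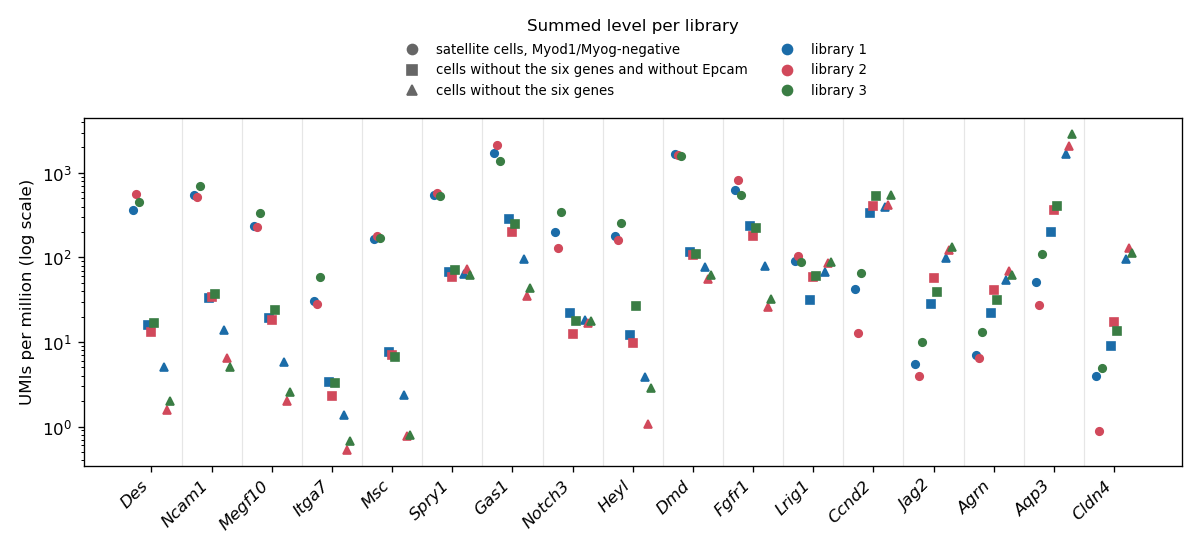
Summed level in CPM (y axis, log scale) of 17 genes (x axis) in Myod1/Myog-negative satellite cells (circles), comparison cells without Epcam (squares) and all cells without the 6 genes of the rule (triangles), 1 symbol per library. From Des to Fgfr1 the circles lie above both other groups, Lrig1 overlaps with the triangles, and from Ccnd2 to Cldn4 the circles lie below both groups.

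In the Notch pathway, the receptors Notch2 and Notch3 and the targets Hey1, Hey2 and Heyl were higher, while the ligands Jag1 and Jag2 were lower. Of 31 genes tested, 12 rose and 8 fell, with a median of -0.23 that was close to that of all genes. Of all genes 18.1% rose and 26.0% fell, and the share of falls in this list was near the latter. The receptor Notch3 (chromosome 17, 32339794 to 32385893, minus strand, GRCm39) was at 202, 129.95 and 346 against 18.2, 16.7 and 17.9 CPM, a log2 fold change of 3.65 ± 0.32 SE with an edgeR adjusted p = 0.000229. Notch2 rose by 1.52 ± 0.13 SE. Of the targets, Heyl was at 181, 159.8 and 257 against 3.90, 1.07 and 2.89 CPM (6.23 ± 0.50 SE) and Hey1 at 82.9, 58.4 and 123 against 15.5, 13.4 and 19.4 CPM (2.43 ± 0.26 SE). Hes1 was at 204, 229 and 212 CPM in the satellite cells and 201, 232 and 230.1 CPM in the comparison cells, ranges that overlapped. The ubiquitin ligase Dtx4, which acts on Notch receptors, rose by 4.86 ± 0.17 SE, and Rbpj, the DNA-binding partner of cleaved Notch, by 1.01 ± 0.17 SE, though Rbpj did not pass against cells without Epcam (edgeR adjusted p = 0.0729). The ligand Jag2 was at 5.54, 3.98 and 9.92 against 99.4, 122 and 134 CPM, the Notch-modifying glycosyltransferase Lfng at 0.887, 0.443 and 1.82 against 17.2, 18.5 and 14.96 CPM, and the co-activator Maml2 fell by 1.24 on the log2 scale.

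Regulators tied to quiescence rose in 9 and fell in 0 of 20 genes tested (median 0.64). Spry1, an inhibitor of FGF signalling needed for return to quiescence, was at 544, 583 and 539 CPM against 63.2, 72.5 and 62.4 CPM (3.06 ± 0.14 SE, edgeR adjusted p = 4.99e-05). Gas1, a growth arrest gene, was at 1702, 2113 and 1388 against 96.5, 35.3 and 43.96 CPM (4.89 ± 0.46 SE). The CDK inhibitor Cdkn1b rose by 0.94 ± 0.12 SE, the forkhead factor Foxo1 by 1.30 ± 0.21 SE and the Hedgehog receptor Ptch1 by 1.60 ± 0.14 SE. The activin antagonist Fst stood at 12.4, 5.53 and 8.30 CPM against 29.1, 8.01 and 10.1 CPM and did not pass against all comparison cells (edgeR adjusted p = 0.244), but was lower with the replicate block (log2 fold change -0.71, edgeR adjusted p = 0.049).

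Of 30 genes of the S, G2 and M phases 1 rose and 11 fell, with a median of -1.43, where 26.0% of all genes fell. Their summed level differed in no one direction, at 237, 252 and 241 CPM in the satellite cells, 260.3, 219 and 464 CPM in the comparison cells and 209.6, 224 and 284 CPM in those without Epcam. Mki67 was at 1.995, 1.55 and 4.66 CPM against 13.95, 6.84 and 34.9 CPM in the comparison cells and had a UMI in 1.28%, 0.912% and 2.48% of the satellite cells. This fall did not pass without library 1 (edgeR adjusted p = 0.0733) or against cells without Epcam (log2 fold change -0.87, edgeR adjusted p = 0.226), and it turned to 0.54 (adjusted p = 0.612) when cells with a Krt5, Krt14 or Dcn UMI were left out of both groups. The 1 gene that rose was the replication helicase subunit Mcm7 (0.99). Among D and E cyclins and CDK inhibitors 4 of 13 rose and 4 fell, against 18.1% and 26.0% of all genes. Ccnd3 rose by 1.18 and Ccnd2 fell by 3.52 on the log2 scale. Ccnd1 stood at 82.9, 36.3 and 172 against 180.2, 150.4 and 292 CPM and did not pass (edgeR adjusted p = 0.107), but was lower with the replicate block (log2 fold change -1.30, edgeR adjusted p = 0.00749).

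Transcripts of differentiation and of mature fibres were detected at low levels. Of 20 differentiation and fusion genes tested 9 rose and 4 fell (median 0.47), and 5 more, among them the fusion genes Mymk and Mymx, were too low to test. The 25 genes summed to 522, 582 and 622 CPM in the satellite cells against 506, 355 and 334 CPM in the comparison cells. In the comparison cells without Epcam they summed to 923, 676 and 635 CPM, above the satellite cells in each library. Myf6, the myogenic factor of mature muscle, was at 6.87, 5.98 and 11.5 CPM against at most 0.0106 CPM. The acetylcholine receptor subunits Chrna1 and Chrnb1 rose by 6.90 ± 0.61 SE and 5.84 ± 0.25 SE, and Tnnt1, the troponin T of slow fibres, was at 53.9, 43.8 and 60.3 against 0.31, 0.085 and 0.272 CPM. Of 21 adult myofibre genes 16 rose and 2 fell, with a median of 4.06. Genes near 0 in the comparison cells, such as Myf6 and Actn3, were tested through their level in the satellite cells. They could only rise, so the counts and medians of both lists lean towards rises. Actn3, the alpha-actinin of fast fibres, was at 25.5, 29.2 and 41.5 against 0.147, 0.106 and 0.0679 CPM (8.25 ± 0.37 SE) and the giant filament protein Neb at 32.1, 27.01 and 40.9 against 2.05, 1.55 and 1.19 CPM. The fast myosins Myh1 and Myh4 stood at only 4.05 to 5.54 and 3.99 to 8.86 CPM in the satellite cells. Tpm2, a tropomyosin, was 1 of the 2 that fell (-1.15).

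Dystrophin and several of its membrane partners were higher in the satellite cells, while sarcoglycans and laminins differed among themselves. Of 30 genes of the basal lamina and its receptors 15 rose and 3 fell, with a median of 1.24. They summed to 5306, 4736 and 6821 CPM in the satellite cells against 2524, 1511 and 1761 CPM in the comparison cells. In the comparison cells without Epcam the sums were close to those of the satellite cells, at 5450, 4350 and 6429 CPM, and higher in library 1. Dmd, dystrophin, was at 1670.2, 1609 and 1598 against 77.1, 56.1 and 61.4 CPM (4.64 ± 0.18 SE, edgeR adjusted p = 4.99e-05), and its membrane partner Dag1 at 539, 401 and 931 against 128, 114 and 143 CPM (2.25 ± 0.28 SE). The dystrophin paralogue Utrn (0.63 ± 0.16 SE) and the sarcoglycans Sgca (6.22 ± 0.46 SE) and Sgcb (2.15 ± 0.23 SE) rose, and Sgcd was lower (-3.01 ± 0.56 SE). The perlecan gene Hspg2 rose by 2.14 ± 0.25 SE. Lama2, the laminin chain of muscle basal lamina, rose by 2.68 against all comparison cells and stood at 0.27 against those without Epcam, where it did not pass (edgeR adjusted p = 0.168), nor did it without library 3 (0.0524). Lama5 and the heparan sulphate proteoglycan Agrn, both of epithelial basement membranes as well, were lower at 8.87 to 15.99 against 59.4 to 77.8 CPM and at 6.42 to 12.95 against 53.9 to 68.6 CPM.

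In the FGF, HGF and calcitonin receptor group 4 of 21 genes rose and 10 fell (median -1.17). Fgfr1, a main FGF receptor of satellite cells, was at 620.4, 816 and 546 against 80.1, 25.9 and 32.03 CPM (3.85 ± 0.48 SE). The FGF target Etv5 rose by 2.10, whereas Dusp6, a phosphatase induced by the same pathway, was at 9.98, 7.97 and 11.9 against 31.97, 34.5 and 32.7 CPM and fell by 1.75 on the log2 scale. Calcrl, the calcitonin receptor-like partner of the RAMP proteins, fell by 1.17 on the log2 scale and did not pass without library 1 (edgeR adjusted p = 0.0665).

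Immediate-early genes were called in both directions, with 5 of 27 higher and 3 lower and a median of 1.43, a share of rises near the 18.1% of all genes. With the replicate block 9 were higher and 4 lower and the median was 0.67, against 19.3% of all genes higher. Fosb was at 58.3, 923 and 63.96 against 7.31, 31.9 and 5.83 CPM (4.56 ± 1.36 SE, edgeR adjusted p = 0.032). Fos rose by 3.92 ± 1.28 SE with all 3 libraries and by 1.53 without library 2, passing in both cases (edgeR adjusted p = 0.0432 and 0.00784). Without library 1 or 3 neither Fos (edgeR adjusted p = 0.0694 and 0.0974) nor Fosb (0.0644 and 0.0887) passed unblocked, whereas with the block Fosb passed without any 1 library and Fos did not pass without library 3 (edgeR adjusted p = 0.0666). Fos also did not pass with the block against cells without Epcam (log2 fold change 2.66, edgeR adjusted p = 0.0515), and DESeq2 gave neither gene an adjusted p. Jund rose by 1.68 and by 1.02 without library 2. Egr1, at 145, 2094 and 175 against 149.97, 134 and 59.2 CPM, passed neither with all 3 libraries nor without library 2. Cebpd did not pass without library 1 or 2 (edgeR adjusted p = 0.0552 and 0.0652). It also did not pass against cells without Epcam (log2 fold change 1.49, edgeR adjusted p = 0.075). Ier5 fell by 2.24 on the log2 scale.

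The rule for named genes took the 15 largest rises among genes with at least 50 CPM in the satellite cells. Beside Tnnt1 they included 2 kinases, Mylk2, the myosin light chain kinase of skeletal muscle (84.7, 127 and 105 CPM, log2 fold change 10.39), and Prkcq (233, 214 and 277 CPM, 8.02). Nctc1, a noncoding RNA beside Igf2 and H19, was at 68.3, 83.5 and 170.2 CPM (10.63) and the unnamed locus Gm43824 at 112, 83.2 and 193 CPM (10.57). Ankrd1, a stretch-responsive titin partner, was at 76.7, 114 and 65.2 CPM, the slow myosin-binding protein Mybpc1 at 219, 203 and 334 CPM and Erfe, the hormone erythroferrone, at 172, 220.1 and 219 CPM. Zim1, Mest, Fndc3c1, C1qtnf3 and Gm34470 were also among the 15, with log2 fold changes from 7.88 for Mest to 9.42 for Gm34470. Nctc1 stood at 0.0652, 0.0106 and 0.0919 CPM in the comparison cells, so the size of its fold change rests on few molecules there.

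The 10 largest falls were those of the desmosomal cadherin Dsg2, the potassium channel Kcnk1, the claudins Cldn4 and Cldn7, the water channel Aqp3, the secreted proteins Tff2 and Sftpd, and Upk3bl, Acpp and Gm15987. Aqp3 was at 51.7, 27.2 and 109.9 CPM in the satellite cells against 1685, 2064 and 2904 CPM. It was highest in library 3 in both groups, as was the share of cells with a Krt5 UMI. Log2 fold changes of the 10 lay between -5.35 and -5.09, and between -3.51 and -1.67 against cells without Epcam. Whether the remaining epithelial RNA in the satellite cells was free RNA was not tested.

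Lrig1 (chromosome 6, 94581510 to 94677242, minus strand, GRCm39), the gene whose promoter drove the label and an inhibitor of ErbB receptors, was measured in these cells as well. A Lrig1 UMI was present in 271 of 627, 280 of 548 and 289 of 807 satellite cells, or 43.2% (95% Wilson interval 39.4 to 47.1), 51.1% (46.9 to 55.3) and 35.8% (32.6 to 39.2). These intervals cover counting error only. The mean of 43.4% ± 7.64 (SD, n = 3) compared with 41.9% ± 8.86 in the positive satellite cells and 49.2% ± 10.3 in the comparison cells. Cells with macrophage markers, given for reference, had a Lrig1 UMI in 10.9% ± 6.39, at median depths of 13038, 9622 and 7769 UMIs. These were 6 of 110, 3 of 32 and 7 of 39 cells. With called doublets left out the shares were 3.09%, 3.33% and 23.1%. Whether such cells lack Lrig1 RNA was not tested.

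With 3 libraries a group, 0.1 is the smallest p such a comparison allows, so none could pass 0.05. An exact two-sided permutation test over libraries gave p = 0.9 against the positive satellite cells and p = 0.5 against the comparison cells. It did not pair the groups of a library, although they come from the same pools, so its p also holds the spread between libraries. With every cell thinned to 5000 UMIs, leaving out 187, 91 and 331 shallower satellite cells, the share was 35.7% ± 4.36 in the satellite cells, 31.9% ± 2.52 in the positive cells and 24.8% to 32.7% in the comparison cells, with exact permutation p = 0.2 and p = 0.3. At 2000 UMIs they were 17.4% ± 2.90, 17.2% ± 2.22 and 14.1% ± 1.94, with exact permutation p = 0.9 and p = 0.3. Over the 6 comparisons the adjusted p was at least 0.6. The mean difference from the positive cells at 5000 UMIs was 3.77 ± 3.19 percentage points (SD over libraries), higher in 3 of 3 libraries. It was 1.46 ± 3.32 points with all UMIs and 0.27 ± 1.37 points at 2000 UMIs, higher in 2 of 3 libraries each time.

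Summed over cells, Lrig1 was at 91.3, 104 and 87.6 CPM in the satellite cells and 66.9, 86.4 and 89.4 CPM in the comparison cells and did not pass (log2 fold change 0.21 ± 0.16 SE, edgeR adjusted p = 0.31). Against cells without Epcam it was higher by 1.06 (edgeR adjusted p = 0.0133). Its paralogue Lrig2 rose by 0.41, with an edgeR adjusted p = 0.0181 that no longer passed without any 1 of the libraries. Lrig3 fell by 1.28 on the log2 scale and rose by 0.68 (edgeR adjusted p = 0.0211) when cells with Krt5, Krt14 or Dcn UMIs were left out of both groups. Of the ErbB receptors, Egfr was at 470.5, 524 and 507 against 285, 283 and 309 CPM (0.77 ± 0.12 SE), while Erbb2 and Erbb3 fell to 5.54 to 9.51 and 2.21 to 5.10 CPM from 31.1 to 43.1 and 39.6 to 50.99 CPM. With the replicate block Erbb3 did not pass against cells without Epcam (log2 fold change -1.31, edgeR adjusted p = 0.0514).

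**Figure D4:**
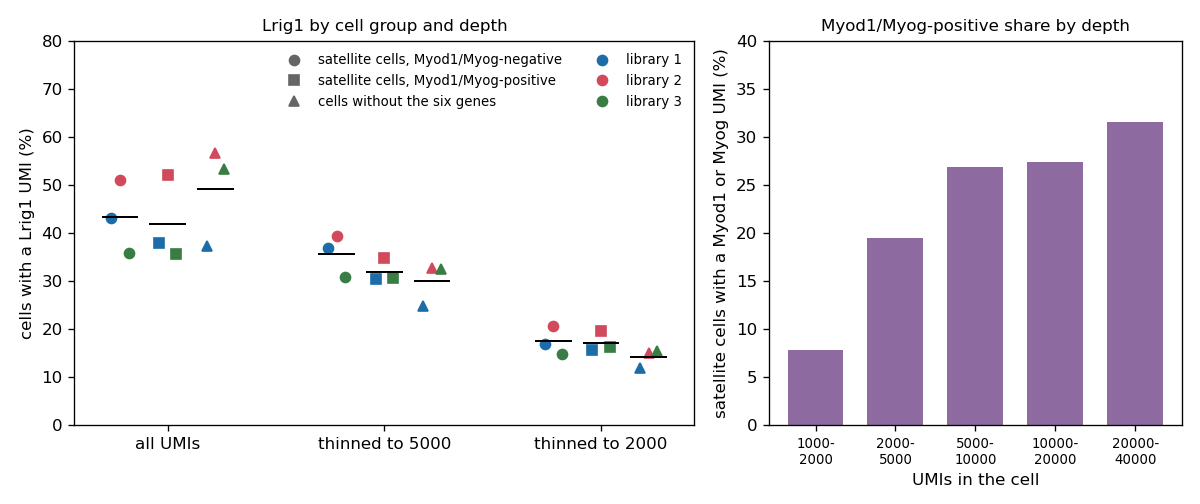
Left, percentage of cells with a Lrig1 UMI (y axis) in 3 groups of cells, with all UMIs and after thinning every cell to 5000 or 2000 UMIs (x axis), 1 symbol per library, with the mean as a black line. Right, percentage of all satellite cells with a Myod1 or Myog UMI (y axis, bars pooled over libraries) by UMIs per cell (x axis). The Lrig1 shares of the groups overlap at each depth, with means of 43.4%, 41.9% and 49.2% before thinning, and the Myod1/Myog-positive share goes from 7.83% in the shallowest to 31.6% in the deepest class, which holds 19 cells.

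The second comparison asked how satellite cells without Myod1 or Myog differ from those with a UMI of either gene. In edgeR's quasi-likelihood test without the library as a block, 0 of 11953 genes (0.0%) passed, with 276 at an unadjusted p under 0.05, and DESeq2 called 2. Since each library gave a sum to either group, the library could serve as a block, and with the library as a block 164 genes (1.37%) passed, 99 higher (0.828%) and 65 lower (0.544%) in the cells without Myod1 or Myog. The gene values that follow are from the blocked fit of edgeR. All 164 genes had the same direction without the block, but both fits use the same sums, so this is no separate support for the calls.

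Several genes of the muscle programme, among them Lincmd1, Chrna1, Sgca and Tnnt1, were lower in the cells without Myod1 or Myog. The rule split the cells by Myod1 and Myog, so a fall of genes expressed together with them is not independent of the rule. The largest fall was that of Lincmd1 (chromosome 1, 20740106 to 20754522, plus strand, GRCm39), a long noncoding RNA of differentiating myoblasts, at 4.21, 2.88 and 6.27 against 47.1, 11.6 and 31.6 CPM, a log2 fold change of -2.68 ± 0.27 SE, adjusted p = 0.000104. All 3 positive sums lay above all 3 negative sums, a separation seen for 5.73% of all genes. In library 1 Myog stood at 219.6 CPM in the positive cells although 1.90% of them had a UMI of it, against 1.16 and 4.15 CPM in libraries 2 and 3, and without library 1 Lincmd1 was still lower by a log2 fold change of -2.23. Chrna1 (chromosome 2, 73393557 to 73410835, minus strand, GRCm39), the acetylcholine receptor alpha subunit, was at 30.8, 26.6 and 65.6 against 80.7, 44.1 and 98.5 CPM (-0.86 ± 0.14 SE, adjusted p = 0.0033). It was lower in each library, although the levels overlapped between libraries. Sgca, alpha-sarcoglycan, was at 8.43, 9.52 and 19.03 against 23.2, 18.6 and 35.3 CPM (-1.06 ± 0.19 SE) and Tnnt1 at 53.9, 43.8 and 60.3 against 104, 50.5 and 110.5 CPM (-0.72 ± 0.12 SE).

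The other large falls were Lix1 (-1.06 ± 0.15 SE), the actin regulator Cap2 (-1.01 ± 0.15 SE), the matricellular protein Smoc1 (-0.99 ± 0.17 SE), the calpain-family protein Capn6 (-0.86 ± 0.14 SE), the TGF-beta pseudoreceptor Bambi (-1.02 ± 0.22 SE), the transcription factor Sox9 (-0.77 ± 0.16 SE) and the nuclear receptor Nr4a2 (-0.76 ± 0.17 SE). Smooth muscle actin, Acta2, was at 300.2, 243 and 403 against 694, 307 and 589.6 CPM. The sums of the marker lists that hold Acta2 and Sox9 were also lower in each library. The 8 pericyte and smooth muscle markers summed to 470.3, 369 and 545 CPM in the negative against 835, 407 and 727 CPM in the positive cells, and the 6 chondrocyte markers to 22.8, 28.8 and 26.5 against 115.8, 59.2 and 32.7 CPM. Of these lists Acta2 was the 1 gene of 7 tested that passed and Sox9 the 1 gene tested, and their part in the other falls was not tested. As lists, 2 of 13 differentiation genes fell, Chrna1 and Tnnt1 (median -0.18), and none of 16 myofibre genes passed (median -0.31), against a median of 0.00 over all genes. Of 25 immediate-early genes 6 fell and none rose, among them Junb (-0.30 ± 0.04 SE) and Egr1 (-0.32 ± 0.05 SE), in a list whose sum differed by library as given above. Of 20 quiescence regulators none passed with or without the block (median -0.02 with it), and they summed to 4312, 5533 and 3966 CPM in the negative against 4491, 5509.99 and 3953 CPM in the positive cells. The 3 genes of the identity list that passed were lower, Megf10 (-0.30), Cxcr4 (-0.33) and Sdc4 (-0.23).

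The promoters of Lincmd1 and Chrna1 are shown because MYOD1 and MYOG bind E-boxes. They were chosen among the muscle genes that fell because their windows hold the motif, and Sgca, which fell by more than Chrna1, is not shown. Each window is from RefSeq on GRCm38.p6, runs from 250 bases before to 50 bases after the start site, and has the E-box CAGCTG, which reads the same on both strands, in capitals. Lincmd1 lies at chr1:20669632-20669931, plus strand, with 1 copy at 15 bases after the start. Chrna1 lies at chr2:73580289-73580588, minus strand, with 2 copies, the first at 92 bases before the start.
Lincmd1: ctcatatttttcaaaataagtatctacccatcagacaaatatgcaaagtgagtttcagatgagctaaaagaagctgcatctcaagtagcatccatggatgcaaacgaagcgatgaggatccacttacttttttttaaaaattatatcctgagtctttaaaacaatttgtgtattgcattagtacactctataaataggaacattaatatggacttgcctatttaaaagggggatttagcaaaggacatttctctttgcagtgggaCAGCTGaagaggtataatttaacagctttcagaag
Chrna1: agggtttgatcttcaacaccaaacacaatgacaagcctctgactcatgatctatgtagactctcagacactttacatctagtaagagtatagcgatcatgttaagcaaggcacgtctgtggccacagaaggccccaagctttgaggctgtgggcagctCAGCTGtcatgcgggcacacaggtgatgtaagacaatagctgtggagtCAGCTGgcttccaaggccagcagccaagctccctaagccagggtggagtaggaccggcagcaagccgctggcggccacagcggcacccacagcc
The motif was found in 18.3% of all 27025 genes with a window of this length, in 11 of the 44 such genes that fell (25.0%) and in 18 of the 66 that rose (27.3%). A match is only a match of letters.

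Notch3 and Hey1 were higher in the cells without Myod1 or Myog. Notch3 was at 202, 129.95 and 346 against 119.8, 82.4 and 245 CPM, higher in each library (0.61 ± 0.08 SE, adjusted p = 0.000617), and the Notch target Hey1 at 82.9, 58.4 and 123 against 51.1, 37.7 and 85.05 CPM (0.60 ± 0.10 SE, adjusted p = 0.00512). These were the 2 of 23 Notch genes that passed, and the median of the list was 0.13. Heyl, the target with the largest rise against the comparison cells, stood at 181, 159.8 and 257 against 159.7, 122 and 223 CPM and did not pass (adjusted p = 0.142). Among basal lamina genes Col4a1 (0.32 ± 0.07 SE), Lamb1 (1.11 ± 0.26 SE) and Col6a3 (2.29 ± 0.52 SE) were higher and Sgca was lower, of 29 tested.

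**Figure D5:**
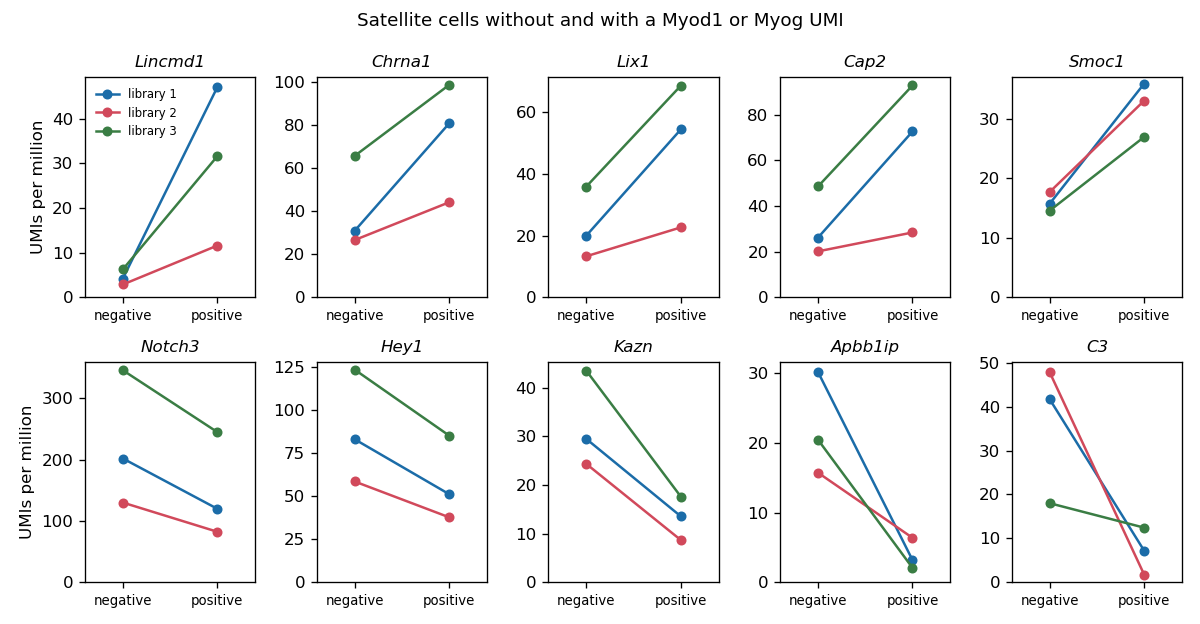
Level in CPM (y axes, from 0) of 10 genes in satellite cells without (negative) and with (positive) a Myod1 or Myog UMI (x axes), with a line joining the 2 sums of each library. In the upper row, Lincmd1, Chrna1, Lix1, Cap2 and Smoc1 are higher in the positive cells of all 3 libraries, and in the lower row Notch3, Hey1, Kazn, Apbb1ip and C3 are higher in the negative cells of all 3 libraries.

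The largest rises in the cells without Myod1 or Myog were Apbb1ip, an adaptor of integrin activation (30.2, 15.7 and 20.4 against 3.19, 6.38 and 2.07 CPM, 2.43 ± 0.33 SE), the complement component C3 (2.18 ± 0.38 SE), Ifi27l2a (1.97 ± 0.33 SE), Rgs6 (1.78 ± 0.32 SE), the guidance receptor Robo2 (1.76 ± 0.25 SE), the lipocalin Apod (1.62 ± 0.33 SE), the basement membrane collagen Col4a6 (1.55 ± 0.22 SE), Gm14616 (1.35 ± 0.23 SE), Kazn (1.29 ± 0.18 SE) and the IGFBP protease Pappa (1.07 ± 0.24 SE). Several genes typical of fibroblasts moved the same way: Col1a1 was at 21.5, 3.98 and 93.5 against 6.39, 0.58 and 50.8 CPM and Dpt at 216, 109 and 290.3 against 139.8, 82.4 and 254 CPM. Of 7 fibroblast markers tested 3 passed, all higher, with a median of 0.59, and the 8 fibroblast markers summed to 2220 to 3189 CPM in the negative against 1525 to 2810 CPM in the positive cells, higher in each library. The 5 secretory markers tested were all above 0 (median 0.18), and 0 passed. The 8 secretory markers summed to 796, 249 and 488 CPM in the negative against 715, 236 and 417 CPM in the positive cells. The part of these lists in the other rises was not tested.

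The calls were repeated under stricter choices of cells, always with the block. With at least 3 of the 6 genes required, 106 genes passed, and 98 of the 160 original genes still tested were called again. Lincmd1, Chrna1, Lix1, Cap2, Smoc1, Capn6, Notch3, Hey1, Kazn and Apbb1ip passed there, with Pax7 required and with every cell thinned to 5000 UMIs, whereas C3, Apod, Ifi27l2a, Rgs6 and Col1a1 did not pass with 3 genes or with Pax7 required. The cells with exactly 2 of the 6 genes, left out with 3 required, held the larger fibroblast marker sums given above, and the part of these in the lost calls was not tested. Thinned to 5000 UMIs, 83 genes passed. Without library 1, 2 or 3 the count was 201, 300 and 99. Without library 3 Capn6, Sgca, Tnnt1, Bambi, Nr4a2, Pappa, Gm14616, Col1a1, Col4a1, Lamb1, Megf10, Cxcr4 and Sdc4 did not pass (edgeR adjusted p from 0.0515 to 0.4). The same held without library 2 for Bambi, Lamb1, Nr4a2 and Sox9 (0.106 to 0.583) and without library 1 for Dpt and Megf10 (0.221 and 0.133). When cells with a Krt5, Krt14 or Dcn UMI were left out, 529 of 1982 negative and 205 of 632 positive cells remained, and 4 of 8755 genes passed, of which Lincmd1 and Nr4a2 belonged to the 164. Of the 164 genes 125 were tested there, and 121 of these had the same direction.

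The third comparison took the split of the study, Lrig1-positive against Lrig1-negative, within the satellite cells without Myod1 or Myog, 840 against 1142 cells. Without the block 0 of 11350 genes (0.0%) passed, 138 had an unadjusted p under 0.05, and DESeq2 called 4. With the library as a block edgeR called 62 genes (0.546%), 52 higher (0.458%) and 10 lower (0.0881%) in the Lrig1-positive cells. The cells with a Lrig1 UMI were deeper, with medians of 8015, 8618.5 and 6713 UMIs against 6306.5, 7797 and 5052, and with every cell thinned to 5000 UMIs the blocked fit called 10 genes.

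The rises were led by C3, at 63.98, 83.9 and 34.5 against 19.5, 4.39 and 5.37 CPM (2.60 ± 0.25 SE, adjusted p = 8.68e-06 by the blocked edgeR fit), and Apod, at 187, 81.9 and 56.3 against 24.8, 18.1 and 20.8 CPM (2.26 ± 0.17 SE). For both genes the Lrig1-positive sums lay above the Lrig1-negative sums in all libraries without overlap, as for 4.41% of all genes. Parm1 (2.01 ± 0.26 SE), the complement component C4b (1.75 ± 0.22 SE) and fibronectin, Fn1 (1.75 ± 0.26 SE), followed. C3 and Apod passed in each blocked alternative in which they were tested, whereas C4b, Parm1 and Fn1 did not pass with at least 3 of the 6 genes required. Fn1 also did not pass without library 1 or 3 (edgeR adjusted p = 0.0618 and 0.133), nor Col1a2 without library 1 (0.0839). Of 7 fibroblast markers 3 passed, Pdgfra (1.39 ± 0.18 SE), Lum (1.58 ± 0.17 SE) and Col1a2 (0.99 ± 0.16 SE), and the 8 markers summed to 2574 to 3357 CPM in the Lrig1-positive and 1948 to 3025 CPM in the Lrig1-negative cells. Their part in the other rises was not tested. The basal epithelial factor Trp63 was also higher (1.21 ± 0.14 SE), and with called doublets left out it stood at -0.27 and did not pass.

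Of the satellite cell lists, few genes moved with Lrig1. Calcrl was higher (1.06 ± 0.20 SE), and Nr4a1 (0.49 ± 0.11 SE) was the 1 immediate-early gene of 25 that passed. Lower were Msc, at 132, 154 and 161 against 195, 211 and 173 CPM (-0.38 ± 0.08 SE), Nkain3 (-1.26 ± 0.28 SE), the potassium channel subunit Kcne4 (-1.02 ± 0.22 SE), the dystrobrevin Dtna (-0.71 ± 0.15 SE) and the secretory gene Bpifa1 (-0.53 ± 0.08 SE). All 5 secretory markers tested were below 0 (median -0.39), of which Bpifa1 alone passed, and the 8 secretory markers summed to 668, 231 and 388 CPM in the Lrig1-positive against 923, 271 and 565 CPM in the Lrig1-negative cells. Of 9 epithelial markers tested 8 were below 0 (median -0.29). The part of these in the other falls was not tested. With 1 library left out the directions of these genes stayed but several did not pass. Nr4a1 and Dtna did not pass without any 1 of the libraries (log2 fold changes from 0.44 to 0.81 and from -0.91 to -0.59, edgeR adjusted p from 0.0967 to 0.288). Msc, at -0.29 and -0.34, Nkain3, at -0.78 and -1.34, and Kcne4, at -1.28 and -0.52, did not pass without library 1 and 2 in turn (0.054 to 0.582), nor Calcrl, at 0.70, without library 3 (0.51). None of 15 identity genes, 23 Notch genes, 20 quiescence genes, 13 differentiation genes or 11 cell cycle genes passed with the block. Without library 1, 2 or 3 the count of 62 became 40, 63 and 41. With cells holding a Krt5, Krt14 or Dcn UMI left out, 202 Lrig1-positive and 327 Lrig1-negative cells remained and 15 of 7545 genes passed. Of the 62 genes 26 were tested there, 25 had the same direction and 5 passed.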

How the data were processed

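Per the submitters' processing notes, Cell Ranger 8.0.1 and build mm39 (GRCm39) were used by the authors, and the deposited matrices hold raw UMI counts per gene and barcode called as a cell, without normalization, for 18068, 10816 and 31646 barcodes and 211727921, 147898790 and 413632222 UMIs. The limits on genes, UMIs and mitochondrial share follow the study, with its gene and UMI limits read the other way round. Cells, genes and lists were chosen with earlier results of these data known. Doublets (highest Scrublet scores in scanpy 1.11.5, at 0.4% per 1000 barcodes) were removed only as an alternative. For each group of cells the UMI counts of a library were added up, and the 3 sums a group entered edgeR 4.0.16 under R 4.3.3 (quasi-likelihood test glmQLFTest after TMM and filterByExpr, two-sided, Benjamini-Hochberg, threshold 0.05) without covariates. The unblocked fit was first tested on simulated counts that held no library effect, and the blocked fit was not tested in this way. The 13 genes of the rule, and Lrig1 in the split by it, were left out of the tests. A library's paired sums share their mice, and their deviations from the group means correlated over genes by 0.174, 0.250 and 0.177 for the comparison cells, 0.260, 0.654 and 0.646 for the positive cells and 0.329, 0.641 and 0.652 for the Lrig1 split. The blocked fit is therefore given for the positive cells and the Lrig1 split and, against the comparison cells, beside some of the counts and genes. P-values of the unblocked fits measure the difference against the spread between pools. Those of the blocked fits measure how evenly the difference between groups recurs within the pools. Alternatives were DESeq2 1.42.0 and its size factors, no filter, leaving out each library, thinning to 5000 UMIs and stricter rules. CPM are UMIs per 1000000 UMIs of the summed cells, and fold changes are log2. Shares were compared with an exact permutation test that did not pair the groups of a library. Named genes were genes of the lists and, among genes past the threshold with the same direction in 3 libraries, the 15 largest rises and 10 largest falls (mean of at least 50 CPM in the higher group), 10 and 10 for the positive cells and 5 and 5 for Lrig1 (at least 20 CPM, blocked fit). Some genes that met the rule are not reported here. Imprinted genes were named after their values were seen. Coordinates are from GENCODE on GRCm39, matched by gene ID for 33185 of 33696 features.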

Additional observations from a re-analysis of the deposited data

How the results depend on the processing

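Against the comparison cells, the count of 8303 genes stayed within 1.5 times under all alternatives except the unblocked omission of library 1 (5492) or library 2 (4486). Leaving out 1 library gave 4486 to 5726, and 6251 to 6632 with the block. Against the Myod1/Myog-positive cells, 0 genes passed in every fit without the block (leaving out 1 library gave 0 to 0, and 201, 300 and 99 with the block), 2 with DESeq2 and 164 with the replicate block. With the block the count was 83 thinned to 5000 UMIs, 205 without doublets, 106 with at least 3 of the 6 genes, 99 with Pax7 required and 4 without cells holding Krt5, Krt14 or Dcn UMIs. For the Lrig1 split the count was 0 without the block, 4 with DESeq2, 62 with the replicate block (40, 63 and 41 without library 1, 2 and 3) and, with the block, 10 thinned, 96 without doublets, 52 with at least 3 genes, 39 with Pax7 required and 15 without cells holding Krt5, Krt14 or Dcn UMIs. Against the comparison cells the block also moved the calls of the immediate-early, fibroblast and pericyte lists by over 1.5 times, as given beside them, and those of 6 endothelial markers from 1 to 5 lower. Basal lamina genes went from 15 to 16 rises and from 3 to 5 falls. The FGF, HGF and calcitonin receptor group went from 4 to 5 rises and from 10 to 12 falls. Falls went from 11 to 13 among S, G2 and M phase genes and from 4 to 5 among head and trunk factors. Rises of identity genes went from 10 to 11. The Lrig1 share of 43.4% was 35.7% at 5000 and 17.4% at 2000 UMIs per cell, where fewer molecules are read.

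Reversed log2 fold changes, by edgeR without and with the block, were those of Met (1.09 and 1.11) and Cd34 (-0.52 and -0.48) against comparison cells without Epcam, of Lrig3 (0.68 and 0.67) and Mki67 (0.54 and 0.38) without cells holding Krt5, Krt14 or Dcn UMIs, and of Trp63 in the Lrig1 split without doublets (-0.29 and -0.27). The cause was not tested. DESeq2 gave no adjusted p for Fos and Fosb against the comparison cells, Junb and Egr1 against the positive cells and Nr4a1 in the Lrig1 split. The alternatives with 2 choices together, and those on Krt5, Krt14 and Dcn, were chosen after seeing the data. With 3 pools a group, at medians of 5669 to 8250 UMIs per cell, the absence of a Myod1, Myog or Lrig1 UMI does not show absence of the RNA.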

Other observations

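Several imprinted genes, which are expressed from 1 parental copy and in muscle are linked to growth and stem cell maintenance, were high in the satellite cells without Myod1 or Myog. They were picked after their values were seen and are given as levels with no test. Levels in the Myod1/Myog-positive satellite cells are not given here, so these values do not tie the genes to the absence of Myod1 or Myog. The noncoding RNA Meg3 was at 1106, 949.7 and 1853 CPM in libraries 1, 2 and 3 against 54.1, 13.9 and 27.7 CPM in the comparison cells, and H19 at 79.6, 114 and 99.2 against 0.538, 0.372 and 1.28 CPM. Peg3, a zinc-finger gene, was at 1385, 1576 and 1274 against 19.7, 9.09 and 10.7 CPM, and its neighbours Zim1 and Usp29 at 137, 135 and 149 and 36.8, 28.6 and 40.1 CPM against at most 0.668 and 0.293 CPM. Mest was at 248, 146 and 477 CPM against 1.96, 0.446 and 1.18 CPM and the adaptor Grb10 at 382, 362 and 449 against 50.3, 15.5 and 20.04 CPM. Igf2, the growth factor gene beside H19, stayed at 5.76, 7.31 and 6.48 CPM. Not all imprinted genes were high: Dlk1 was at 3.77, 1.99 and 14.2 against 9.66, 1.06 and 2.71 CPM and Cdkn1c at 45.9, 46.5 and 43.3 against 61.96, 39.1 and 31.5 CPM, ranges that overlap. In the comparison cells without Epcam, Meg3 was at 179.9, 129 and 259 CPM and Peg3 at 52.8, 59.2 and 76.7 CPM, so both genes were lower there than in the satellite cells in each library.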
